A study of Mus musculus with 14 samples.

Results

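Ion channel genes were examined for the response of the transcription factor NKX2.2 to loss of the zinc-finger factor KLF4. Members are the regions of the authors' csaw comparison whose nearest protein-coding gene has a symbol starting with Kcn (potassium channels), Cacn (voltage-gated calcium channels), Scn followed by a digit (voltage-gated sodium channels) or Hcn (hyperpolarization-activated channels). A region overlapping a gene had distance 0, and a tie went to the gene with the closer end. The rule found 63 of the 6758 regions, at 37 of 138 channel genes.

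The samples were cultures of alphaTC6, a mouse line of glucagon-producing alpha cells, of wild-type genotype by its label. All had been transfected for 48 h with small interfering RNA (siRNA), either scrambled or directed at Klf4, so every group carries the transfection and no untransfected culture is included. Chromatin immunoprecipitation and sequencing (ChIP-seq) for NKX2.2 covered 4 scramble and 3 Klf4-knockdown cultures, and 4 scramble and 3 Klf4-knockdown inputs accompanied them. They represent a single cell line, and the level of Klf4 left after the knockdown was not measured here.

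Alpha cells are electrically excitable. Potassium channels set the resting potential and end each action potential, sodium and calcium channels carry its upstroke, and calcium entry triggers glucagon release. Potassium channels are built from a pore-forming subunit and, in many cases, auxiliary subunits that change gating or traffic. The voltage-gated calcium channels pair a pore-forming alpha1 subunit with alpha2delta, beta and sometimes gamma subunits.

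One member lay on a listed RefSeq promoter, that of Kcnj9, and its bases are shown because NKX2.2 signal was measured there. Of the 37 channel genes with a region, 29 have a listed promoter. Kcnj11, whose region lies close to a gene end, has none, so such genes could not be scored. Kcnj9 encodes a subunit of G-protein-gated inward rectifiers (GIRK channels), which open when G-protein beta-gamma subunits are released. The region, chr1:172329251-172329410, covers 138 bp of the 300 bp promoter window, of which 88 bp lie before the gene start at position 172329322 on the minus strand. The first line below is RefSeq sequence of GRCm38.p6 for the 250 bases before that start, at chr1:172329323-172329572. The second line is the first 21 transcribed bases, at chr1:172329302-172329322. Both are read on the minus strand from 5′ to 3′, and capitals mark AAGTG, the core letters of the NKX2 homeodomain motif, or its reverse complement CACTT.
Kcnj9 before the start: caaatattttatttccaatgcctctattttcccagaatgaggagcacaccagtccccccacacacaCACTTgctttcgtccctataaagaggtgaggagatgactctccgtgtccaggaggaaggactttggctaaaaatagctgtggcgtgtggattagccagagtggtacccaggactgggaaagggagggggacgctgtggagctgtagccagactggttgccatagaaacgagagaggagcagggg
Kcnj9 from the start: aacctgggAAGTGgggatgac
The AAGTG match begins at base 9 of the transcript and lies inside the region. The CACTT match begins at position -184 from the start and lies outside it. Such letters are common: AAGTG, searched on both strands, occurs in 46.4% of the 32851 promoter windows of 300 bp in the RefSeq table. The letters GGGNGTG or GGGTGNG, which spell the CACCC-type motif of KLF factors and overlap each other at GGGTGTG, were searched on both strands and were not found in the Kcnj9 window. They occur in 42.6% of all promoter windows.

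Across the 63 channel regions, 1 passed a false discovery rate (FDR) of 0.05 in the authors' deposited table, against 1.36% of all 6758 regions. It lay inside Kcnip4 and was listed as up, where 0.769% of all regions passed with a positive and 0.592% with a negative value. At an FDR of 0.1 the channel regions passing were 2, Kcnip4 and Kcnt2, against 2.31% of all regions, and at 0.01 there were 0, against 0.592%. By best-window FDR 1 channel region passed 0.05, again Kcnip4, against 1.2% of all regions. Most channel regions were listed with a positive log2 fold change: 50 were above 0 and 13 below, where 56.8% of all regions were above 0. Their median log2 fold change was 0.26, with quartiles of 0.02 and 0.42, beside a median of 0.04 over all regions. By best window the medians were 0.28 for channel regions and 0.15 over all regions. Unless the best window is named, a region's fold change here is the representative value of the authors' deposited table. It belongs to a representative window and is not a mean over the region, whereas the p beside it combines the windows. Values ran from -1.05 at Kcnt2 to 0.94 at Cacna1c.

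The authors' deposited table does not name the numerator of its fold change, so up and down are its own signs and are not read as gain or loss in the knockdown. It holds no value per culture, so the spread between replicates cannot be shown, and the authors' FDR over all regions is the sole test of a difference. The series text calls the cultures biological replicates and says no more of how they were separated.

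An unadjusted p under 0.05 was listed for 8 of the 63 regions, against 11.2% of all regions in the authors' deposited table. Of those 8, 7 were listed as up and 1 as down, where 7.55% of all regions had such a p with a positive value and 3.68% with a negative one. The share of channel regions with such a p was 12.7%, close to the background. By the direction column of the authors' deposited table, 44 channel regions were up, 10 down and 9 mixed, a label that 19.4% of all regions carry. The csaw windows inside the channel regions numbered 243, of which the table counted 19 as up (7.82%) and 1 as down (0.41%). Over all regions 4.63% of windows were counted as up and 7.66% as down, and over annotated regions 4.81% and 5.12%. The counted windows of channel regions all lay in the 8 regions with an unadjusted p under 0.05, and windows of a region lie side by side. Channel regions held at most 11 windows each, where a region of the whole set held up to 316. Window shares therefore give wide regions more weight. The limit at which a window was counted is not given in the sources used here, and the difference in shares was not tested.

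**Figure D1:**
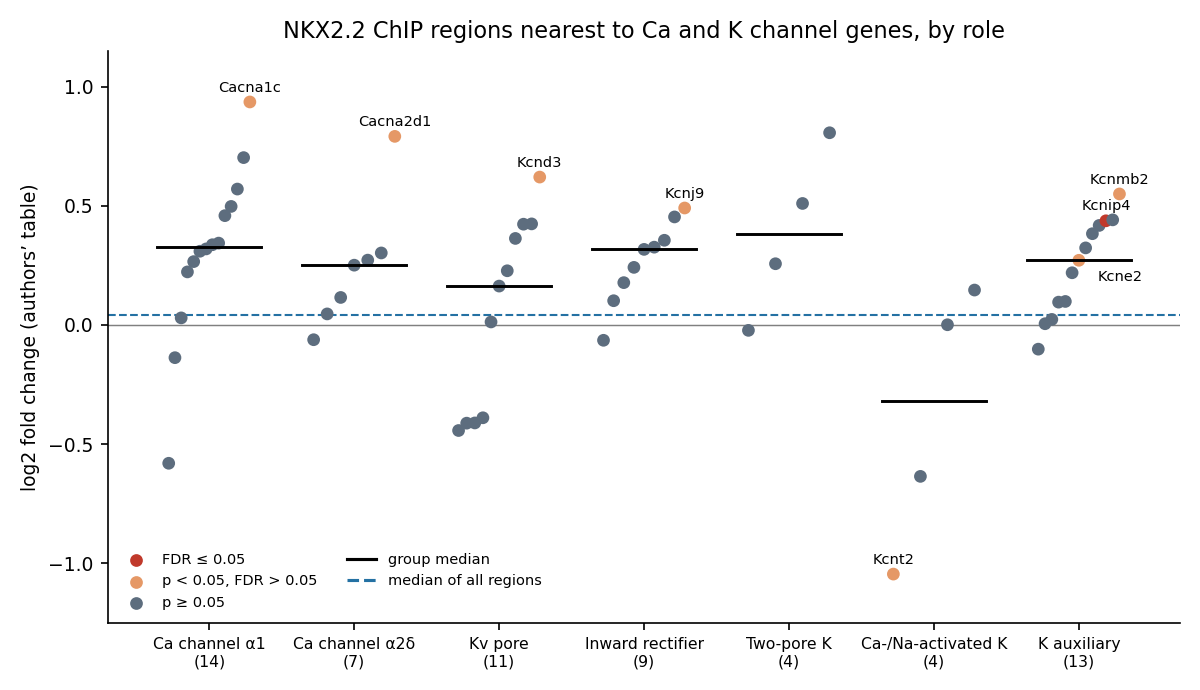
Log2 fold change of calcium and potassium channel regions in the authors' deposited table (vertical axis), grouped by channel role with the number of regions in parentheses; each point is a region, black bars are group medians and the dashed line is the median of all 6758 regions, 0.04. Regions at p under 0.05 are named; only Kcnip4 passed an FDR of 0.05, and the lowest point is Kcnt2 at -1.05.

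**Figure D2:**
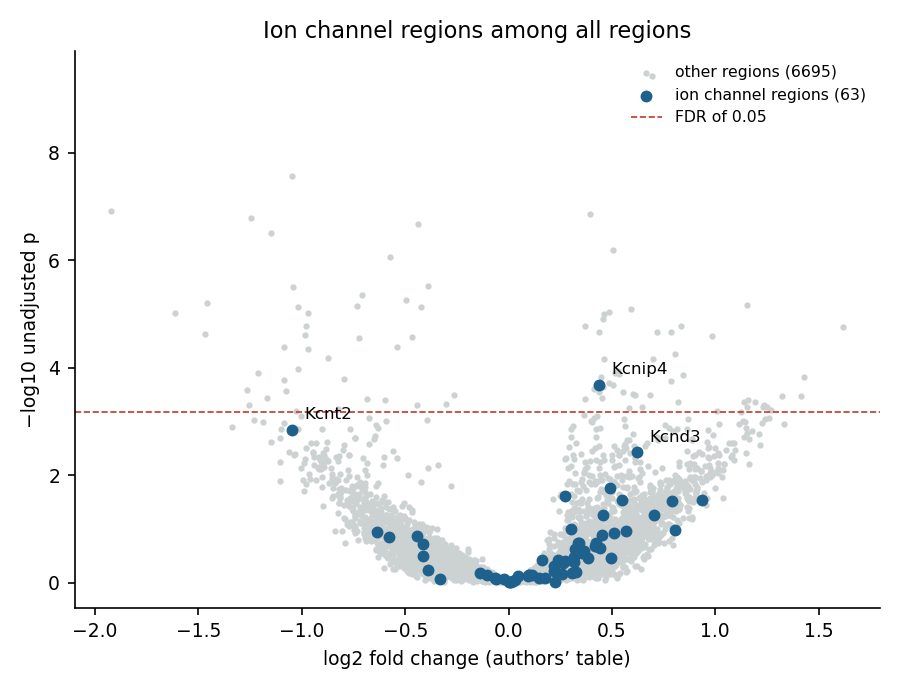
Log2 fold change (horizontal axis) against −log10 of the unadjusted p (vertical axis) in the authors' deposited table for the 63 ion channel regions and the 6695 other regions; each point is a region and the dashed line marks an FDR of 0.05. Kcnip4 lies above the line, Kcnt2 and Kcnd3 lie below it, and most channel points sit to the right of 0.

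The calcium channel pore group was the largest, with 14 regions at 7 of 10 alpha1 genes. None passed an FDR of 0.05 in the authors' deposited table, where the smallest value was 0.345. Of the 14, 12 had a positive log2 fold change, with a median of 0.33.

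Cacna1c, which encodes an L-type alpha1 subunit, was nearest to 7 regions, more than any other channel gene. They span 178 kb inside a gene of 610 kb on chromosome 6, from 118587240 to 119197384. The region chr6:119079051-119079910, 860 bp wide with 11 windows, had the highest value of all channel regions: the authors' deposited table lists it at 0.94, with p = 0.0286 and an FDR of 0.345. Up calls were listed for 3 of its windows. By best window its value was lower, at 0.57 in the authors' deposited table, and was not the highest, as Kcnj9 was listed at 0.82. A neighbour at chr6:119082551-119082810 was listed at 0.50 in the authors' deposited table (p = 0.352). The regions starting at 118936201, 119052201 and 119058551 were listed at 0.27, 0.03 and 0.34, with p of 0.432, 0.911 and 0.185 in the authors' deposited table. Negative values in the authors' deposited table were those of chr6:118921451-118921710, at -0.14 (p = 0.672), and chr6:119099451-119099560, at -0.58 (p = 0.145). Of the 7 assigned regions, the outermost on either side were negative and the 5 between them positive, and none passed the adjusted test.

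A pair of further regions overlapped Cacna1c but had the closer gene end in Dcp1b, which encodes a decapping factor and overlaps Cacna1c there, so the rule assigned them to Dcp1b. One of them, chr6:119179801-119180210, had 9 windows, 4 of them counted as up. The authors' deposited table lists it at 0.51 with an FDR of 0.00055, below that of every assigned channel region. The other, chr6:119175551-119175610, was listed at 0.40 in the authors' deposited table (p = 0.233). Both lie 17.4 and 21.8 kb inside the upper bound of Cacna1c, whose listed starts are on the minus strand. With every overlapping gene counted, Cacna1c held 9 regions, 7 of them positive, and the number of channel regions at an FDR of 0.05 was 2 of 66.

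**Figure D3:**
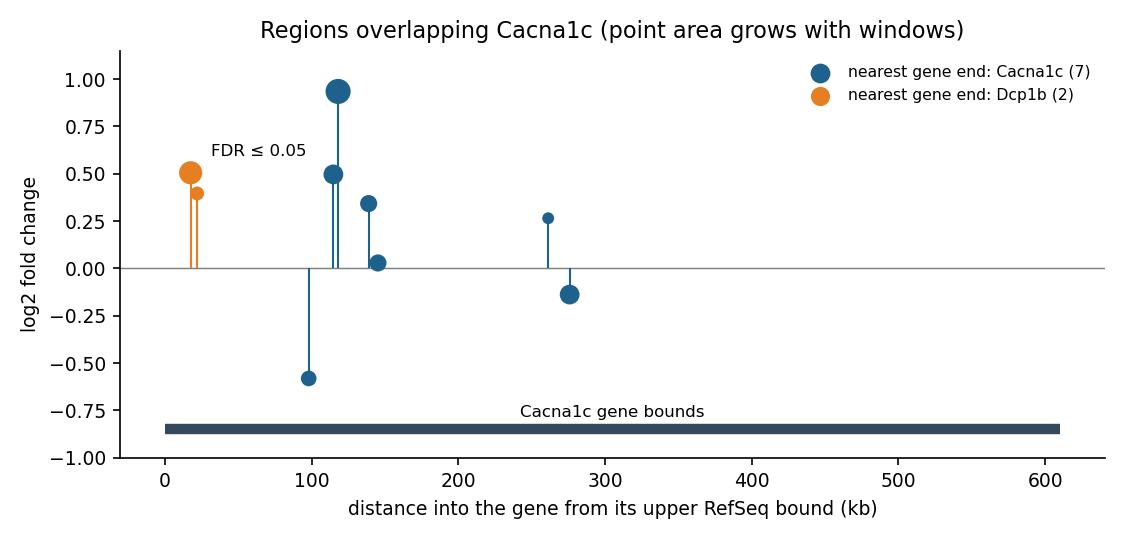
Deposited log2 fold change from the authors' table (vertical axis) of the 9 regions overlapping Cacna1c, by distance into the gene from its upper RefSeq bound in kb (horizontal axis); point area grows with the number of windows and the bar marks the gene bounds. Blue points are the 7 regions assigned to Cacna1c and orange points the 2 assigned to Dcp1b; the orange point at 17.4 kb is the one that passed an FDR of 0.05.

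The other L-type gene with a region was Cacna1d. Its region chr14:30249001-30249060 was listed at 0.57 in the authors' deposited table (p = 0.111). Cacna1a encodes the P/Q-type pore, and its region chr8:84346501-84346860, 8.05 kb from a gene end, was listed at 0.46 in the authors' deposited table with p = 0.0552. Cacna1e, the R-type pore, was listed at 0.34 (p = 0.184) in the authors' deposited table for chr1:154500551-154500760. None of these 3 values passed the adjusted test.

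The T-type alpha1 genes, whose channels open at negative potentials, had 4 regions, each with a positive value. Cacna1h had the highest of them, 0.70 with p = 0.0549 in the authors' deposited table, at chr17:25443051-25443160, which lies 6.72 kb outside the gene. Cacna1g had 2 regions, listed at 0.32 (p = 0.412) and 0.31 (p = 0.676) in the authors' deposited table. Cacna1i was listed at 0.22 in the authors' deposited table (p = 0.616). No region was assigned to Cacna1b, Cacna1f or Cacna1s.

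Auxiliary calcium channel subunits were represented by alpha2delta genes alone, with 7 regions at 3 of the 16 auxiliary genes. Of the 7, 6 were positive, the median was 0.25, and none passed an FDR of 0.05 in the authors' deposited table. Cacna2d1 had 4 regions, all positive. The region chr5:16297601-16297710 was listed at 0.79 in the authors' deposited table, with p = 0.0305, an FDR of 0.357 and 1 of 3 windows counted as up. The other Cacna2d1 regions were listed at 0.05 (p = 0.760), 0.27 (p = 0.406) and 0.25 (p = 0.412) in the authors' deposited table, the first of them 83.8 kb outside the gene. Cacna2d2 was listed at 0.11 and 0.30 in the authors' deposited table (p = 0.715 and 0.103). Cacna2d4 was listed at -0.06 (p = 0.850) in the authors' deposited table, the single negative value of the group. No region was assigned to any beta or gamma subunit gene.

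Voltage-gated potassium channel pores had 11 regions at 9 of 40 genes, with values of both signs. Of the 11, 7 were positive and 4 negative, with a median of 0.16. The smallest FDR among them in the authors' deposited table was 0.131, so none passed.

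That smallest value belonged to Kcnd3, a pore of the rapidly inactivating A-type current. Its region chr3:105521351-105521560 lies 69.6 kb downstream of the listed start, inside the gene. It was listed at 0.62 in the authors' deposited table with p = 0.00373, with an up call for 4 of its 5 windows. Its p ranked 193 among the 6758 regions. The related gene Kcnd2 was nearest to a region 641 kb away, which was listed at 0.23 (p = 0.993) in the authors' deposited table. At that distance the assignment says only that no other protein-coding gene lay closer.

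The Kcnh genes encode ether-a-go-go type channels, of which Kcnh2 is the pore of the rapid cardiac repolarizing current. Kcnh2 had 3 regions, listed at 0.42 (p = 0.187), -0.41 (p = 0.317) and 0.01 (p = 0.968) in the authors' deposited table. The first of these lies 53.0 kb outside the gene and the others inside it. Kcnh1 and Kcnh6 were listed at 0.16 and 0.42 (p = 0.377 and 0.207) in the authors' deposited table, and Kcnh5 at -0.41 (p = 0.195).

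Another negative value was that of Kcnq3, whose product contributes to slow, non-inactivating currents. Kcnq3 was listed at -0.39 (p = 0.594) in the authors' deposited table. Kcnc4, a rapidly activating channel of the Shaw-related family, was listed at 0.36 (p = 0.261) in the authors' deposited table. No region was assigned to any Kcna gene, so Kcna4 could not be described.

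Inward rectifiers had 9 regions at 6 of 15 genes, of which 8 were positive, with a median of 0.32. None passed an FDR of 0.05 in the authors' deposited table, where the smallest value was 0.273.

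That value was the Kcnj9 promoter region shown above, listed at 0.49 in the authors' deposited table with p = 0.0173, with an up call for 3 of its 4 windows. Its best window was listed higher, at 0.82 in the authors' deposited table. Kcnj3 and Kcnj6, the other GIRK subunit genes with regions, had positive values as well. Kcnj6 was listed at 0.33, 0.45 and 0.24 in the authors' deposited table (p = 0.645, 0.131 and 0.373), and Kcnj3 at 0.18 and 0.35 (p = 0.822 and 0.278). All 6 GIRK regions were thus listed as up, where 50 of the 63 channel regions and 56.8% of all regions had a positive value. An unadjusted p under 0.05 was listed for 1 of the 6, where 7.55% of all regions had such a p with a positive value. The Kcnj3 and Kcnj6 regions lay far from the listed starts, 29.3 kb being the closest. No region was assigned to Kcnj5.

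Kcnj11 encodes the pore of the ATP-sensitive potassium channel, which closes when glucose metabolism raises ATP. Its 60 bp region chr7:46100751-46100810 lies inside the gene, with its midpoint 171.5 bp from a gene end. It was listed at -0.06 in the authors' deposited table, with p = 0.835. The partner of this channel, the sulfonylurea receptor gene Abcc8, is nearest to 3 regions, listed at 0.44, 0.57 and 0.01 in the authors' deposited table (p = 0.142, 0.135 and 0.980). None of the 4 values at this channel passed the adjusted test.

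Kcnj13 and Kcnj1 encode inward rectifiers known from epithelia. Kcnj13 had a region 748.5 bp downstream of its listed start, which also overlaps Gigyf2, and it was listed at 0.32 (p = 0.332) in the authors' deposited table. Kcnj1 was listed at 0.10 (p = 0.731) in the authors' deposited table, 2.76 kb outside the gene.

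Tandem-pore (K2P) potassium channels, which carry leak currents, had 4 regions at 2 of 14 genes, and none passed. Kcnk2, a mechanically gated leak channel, had 3 regions, all positive. The widest of all channel regions, chr1:189494901-189496460, is 1560 bp wide with 11 windows and lies 92.1 kb outside Kcnk2. It was listed at 0.81 in the authors' deposited table, with p = 0.107 and no window called up. The others were listed at 0.51 for a single window (p = 0.121) and at 0.26 (p = 0.684) in the authors' deposited table, the latter 1.55 kb downstream of a listed Kcnk2 start. Kcnk13 was listed at -0.02 (p = 0.873) in the authors' deposited table. No region was assigned to Kcnk3, Kcnk9 or Kcnk16, leak channels studied in islet cells.

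Calcium- and sodium-activated potassium channels had 4 regions at 3 of 8 genes and were the one potassium channel group with a negative median, -0.32. Kcnt2, a sodium-activated channel, had the lowest log2 fold change of all channel regions. That region, chr1:140531651-140531660, consists of 1 window of 10 bp inside the gene, 286 kb downstream of the listed start. It was listed at -1.05 in the authors' deposited table, with p = 0.00142 and an FDR of 0.0722, and so missed 0.05. Another Kcnt2 region was listed at 0.15 (p = 0.834) in the authors' deposited table.

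Kcnn1 and Kcnn3 encode small-conductance calcium-activated channels. The Kcnn1 region chr8:70865601-70865910 crosses the upper gene bound and lies 2.50 kb upstream of the nearest listed start. It was listed at -0.64 in the authors' deposited table, with p = 0.113. Kcnn3 was listed at 0.00 for a single window in the authors' deposited table, with p = 0.999. The large-conductance pore gene Kcnma1 had no assigned region.

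Auxiliary potassium channel subunits had 13 regions at 6 of 17 genes, and the single called region was among them. Of the 13, 12 were positive, with a median of 0.27, and 3 had an unadjusted p under 0.05 in the authors' deposited table, all listed as up, where 7.55% of all regions had such a p with a positive value.

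The called region lies in Kcnip4, which encodes a KChIP, one of the calcium-binding proteins that bind A-type pores such as those of Kcnd2 and Kcnd3 and change their inactivation. It is chr5:48781251-48781460, 210 bp wide, inside a gene of 1136 kb and 391.9 kb from its nearer end. It comprises 5 windows, 4 of them called up. The authors' deposited table lists it at 0.44, with p = 0.000208 and an FDR of 0.0247. Its p ranked 56 among the 6758 regions. The other Kcnip4 regions were listed at -0.10 (p = 0.731), inside the gene, and 0.42 (p = 0.213), 116 kb outside it, in the authors' deposited table. The called value was therefore close in size to an uncalled one at the same gene.

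Kcnip3 and Kcnip1 encode further KChIPs. Kcnip3 had 3 regions, 4.11 to 18.8 kb downstream of a listed start and listed at 0.10, 0.22 and 0.44 in the authors' deposited table (p = 0.713, 0.502 and 0.231). Kcnip1 was listed at 0.02 (p = 0.936) and 0.38 (p = 0.354) in the authors' deposited table. Over the A-type pores and KChIPs together, 9 of 10 regions were positive, with a median of 0.30, beside 56.8% and 0.04 over all regions. The 10 include the Kcnd2 region that lies 641 kb from its gene. They leave out Dpp10 and Dpp6, taken up below, where 3 of 6 and 4 of 8 regions were positive, with medians of 0.19 and 0.02.

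Kcnmb2 encodes a beta subunit of large-conductance channels. Its region chr3:32214051-32214260, 13.9 kb beyond the gene, was listed at 0.55 in the authors' deposited table (p = 0.0292, FDR 0.348), and another inside the gene at 0.32 (p = 0.242). Kcne2 belongs to a family of small subunits that modify Kcnq and Kcnh channels. Its region chr16:92294251-92294610, with 8 windows of which 2 were counted as up, was listed at 0.27 in the authors' deposited table (p = 0.0241, FDR 0.321). Kcne4 was nearest to a pair of regions outside the gene, listed at 0.10 and 0.00 in the authors' deposited table (p = 0.768 and 0.987).

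No region was assigned to any of the 14 sodium channel genes, 10 for pores and 4 for beta subunits, so Scn3a, Scn8a and Scn9a gave no value. The filter behind the authors' table is not given in the sources used here, so a gene without a region is one without a listed value, not one shown to lack NKX2.2.

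Of the 31 channel genes listed for a role in alpha-cell or islet electrical activity, 15 had a region, beside 37 of all 138 channel genes and 20.7% of protein-coding genes. None of the regions assigned to them passed an FDR of 0.05 in the authors' deposited table. The region that overlaps Cacna1c but was assigned to Dcp1b did, with an FDR of 0.00055. Among the 14 channel genes with more than 1 region, 10 had only positive values, none had only negative ones, and 4 had both. Those 4 were Cacna1c, Kcnh2, Kcnip4 and Kcnt2.

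Channel regions lay mostly deep inside genes. Of the 63, 49 (77.8%) overlapped their gene, and 37 (58.7%) were inside it and over 10 kb from both ends, where 27.4% of the 6726 regions on assembled chromosomes were. Within 1 kb of a gene end there were 4 channel regions (6.35%), at Kcnj9, Kcnj11, Kcnj13 and Kcnn1, where 1752 of the 6726 annotated regions were. The median distance to the nearer gene end was 49.5 kb for channel regions and 12.5 kb for all annotated regions. The assigned genes differed in length too, with a median over regions of 222 kb for channel regions and 44.9 kb for all annotated regions. The part of gene length in these places was not tested. Of the 54 channel regions whose gene has a listed RefSeq start, 44 were over 10 kb from each listed start of that gene.

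Positive shares were set beside those of all regions at the same places. Of all annotated regions within 1 kb of a gene end, 41.5% were listed as positive in the authors' deposited table, and of those farther away 62.5% did. Of the channel regions farther than 1 kb from the ends, 48 of 59 were positive (81.4%), with a median of 0.26 beside 0.10 for all such regions. Inside genes and over 10 kb from the ends, 28 of 37 channel regions were positive (75.7%) beside 64.2% of all such regions, with medians of 0.22 and 0.11. The 4 channel regions near gene ends were 2 positive and 2 negative. The part of place in the sign was not tested beyond these values.

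The channel genes with a region had a median length of 152 kb, against 36.2 kb for the 101 channel genes without a region. Over all 4542 protein-coding genes with a region the median length was 34.2 kb. Among genes over 100 kb, 22 of 44 channel genes had a region, beside 44.6% of 2429 protein-coding genes. For lengths of 20 to 100 kb the counts were 10 of 50 beside 24.2%, and under 20 kb they were 5 of 44 beside 13.6%. Channel regions were 160 bp wide at the median and all annotated regions 110 bp, and 6 of the 63 consisted of a single window.

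**Figure D4:**
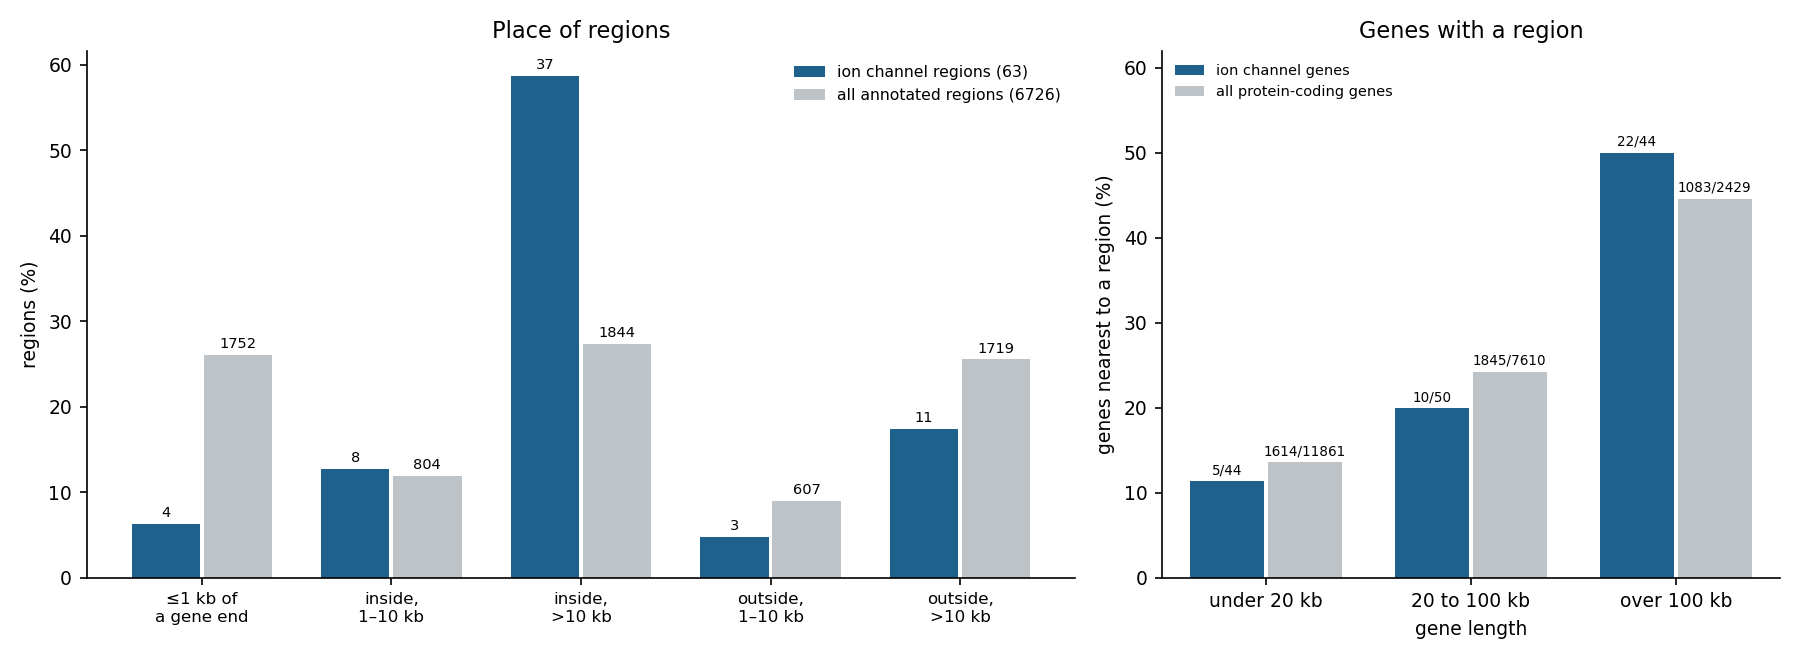
Left, the percentage of ion channel regions and of all annotated regions by place relative to the nearest protein-coding gene (bars, with numbers of regions above them); right, the percentage of ion channel genes and of all protein-coding genes that are nearest to a region, by gene length (bars, with genes with a region over all genes). Inside a gene and over 10 kb from its ends lay 58.7% of channel regions and 27.4% of all annotated regions, and the share of genes with a region was highest for genes over 100 kb in both sets.

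Other genes of membrane excitability, from a list of 59 symbols of which 58 are in the gene table, were counted in the same way. They were nearest to 68 regions at 25 genes, with 37 positive and 31 negative values and a median of 0.02 in the authors' deposited table. An FDR of 0.05 was passed by 1 of the 68, and an unadjusted p under 0.05 was listed for 7, all up, beside 1.36% of all regions at that FDR and 11.2% at that p, 7.55% with a positive value. The difference between the lists was not tested.

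The called region of that list lies in Dpp10, whose product is an auxiliary subunit of the same A-type channels that KChIPs bind. It is chr1:124002701-124003010, listed at 0.52 in the authors' deposited table with an FDR of 0.0182, with 4 of 7 windows called up. The other 5 Dpp10 regions ran from -0.46 to 0.56 in the authors' deposited table, with 3 of the 6 positive. Dpp6, its paralog, had 8 regions, of which 4 were positive, and the smallest p among them in the authors' deposited table was 0.0356, at 0.78. Itpr1 and Itpr2, which encode calcium release channels of the endoplasmic reticulum, had 3 regions each, all positive, with medians of 0.56 and 0.38 and none past the adjusted test. Other genes of the list went the other way. Atp1b1 had 4 of 6 regions negative, with a median of -0.34. Ank2 (-0.67), Trpm5 (-0.51), Abcc9 (-0.50), Slc8a1 (-0.28) and Ryr2 (-0.26) each had a single region, also not past that test.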

How the data were processed

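NKX2.2 ChIP-seq and input libraries came from alphaTC6 cultures. The submitters' processing notes name mm10, FastQC, Bowtie2 and MACS2; csaw was used for differential binding, per the series' design text. Windows, filters, normalization, covariates and use of the inputs are not given in the sources used here. The authors deposited 1 table of regions with log2 fold changes, combined and best-window p-values and FDR values. It holds no counts, so depth is unknown and no replicate error, left-out culture or other normalization could be computed.

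Python 3.11.15, numpy 2.4.6, pandas 2.3.3 and matplotlib 3.10.9 were used. The deposited FDR values equal a Benjamini-Hochberg adjustment over all 6758 regions. Nearest genes were taken from 21900 RefSeq protein-coding genes of GRCm38.p6, and promoter sequence from the RefSeq promoter table of that build, which has entries for 101 of the 138 channel genes; exons and introns were not distinguished. The 32 regions on unplaced contigs received no gene. The adjustment function was tested on simulated p-values, and the nearest-gene function on a sample of the deposited regions against a full search.

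The members, gene lists and alternatives were chosen with earlier results of these data known. Regions were named by rule: those at an FDR of 0.05, the smallest p per role and sign, the 8 genes with most regions (the tie for the last broken by p), the widest region and those with most windows, those within 1 kb of a gene end or start, and a list of 31 islet or alpha-cell channel genes. The remaining regions were named for completeness, with values seen. Some channel genes are not reported here by name; their regions stay in the counts.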

Additional observations from a re-analysis of the deposited data

How the results depend on the processing

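The count of channel regions at an FDR of 0.05, which was 1, became 0 at a threshold of 0.01 and 2 at 0.1, where Kcnt2 joined Kcnip4, and 2 when any overlapping channel gene was counted; thresholds and assignment change it by construction. Best-window p-values, filters on window number, width, contigs and chromosome starts, limits on distance and midpoint distances each left it at 1, with the FDR of Kcnip4 between 0.0183 and 0.0362. The median log2 fold change stayed between 0.25 and 0.28, and the count at p under 0.05 between 7 and 9. The median over all regions moved more, from 0.04 to 0.15 with the best window, where the channel median was 0.28. The distance between the channel and overall medians was thus smaller by best window. Of 167 values of named regions under alternatives, 165 kept sign and side of the threshold. With the best window, the Kcnip4 region at 49259501 turned from -0.10 to 0.33 and the Cacna1c region at 119052201 from 0.03 to -0.17, each with an FDR of 1; the cause was not tested. No paired analysis was possible because no column belongs to a single culture. Leaving out replicates, DESeq2 and other normalizations were not run for the same reason. With depth unknown, the smallest difference that could have been called is unknown too.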
